A study of Mus musculus with 9 samples.

Results

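The genes described here encode the bone morphogenetic proteins (BMPs), the transforming growth factors beta (TGF-beta), the activins, their receptors, the Smad proteins that carry the signal, the secreted proteins that block it and the Id genes that it switches on. They were chosen by symbol alone, from the protein-coding genes of GENCODE release M21 on GRCm38 (mm10), and 55 of the 45706 gene identifiers in the count table matched, of which 54 are described. By role these comprise 10 BMP-type ligands, 9 growth differentiation factors, 5 TGF-beta and activin ligands, 1 protease (Bmp1, which shares the name of the ligands but cuts procollagen and the antagonist chordin), 5 secreted antagonists, 7 type I receptors, 5 type II and III receptors, 6 genes for the receptor Smads and Smad4 together, 2 inhibitory Smads and 4 Id genes. Gdf1 had no row of that symbol among the matched identifiers, so it is not among the 55 and was not analysed here. The rule for symbols uses no measured value, but the members and lists were chosen with earlier results of these data known.

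A dimeric ligand of this family brings type II and type I receptors together, and the type II receptor phosphorylates the type I receptor, which then phosphorylates receptor Smads. BMPs act mainly through Smad1, Smad5 and Smad9, and TGF-beta, activins and Gdf11 act mainly through Smad2 and Smad3. Both branches share Smad4. In the early neural tube, BMPs from the surface ectoderm and roof plate set dorsal fates, antagonists such as Noggin limit them, and later the same pathway takes part in the choice between neurons and glia.

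RNA was sequenced from central nervous system (CNS) tissue of untreated C57BL6/J mice in 3 groups of 3 libraries: embryos at E9.5 and at E14.5 (E gives the day of gestation) and adults at P60 (P gives the day after birth). At E9.5 the tissue was the head cut off behind the fourth ventricle, with part of the tissue outside the neuroectoderm taken away; at E14.5 it was the brain without meninges; at P60 it was the CNS of adults anaesthetised with ketamine and xylazine and perfused with cold buffer. The libraries were made from whole tissue with a kit that copies poly(A) RNA in full length, does not mark strand and starts from about 1 ng of RNA. The labels do not say whether the 3 libraries of a stage came from separate animals or litters, so each p-value speaks only to the variation among these libraries, which may be technical. In bulk tissue, fewer cells of a type and less RNA per cell cannot be told apart.

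The libraries held 30481975 to 35619093 counts, and 1 read was worth 0.0281 to 0.0328 CPM, the unit in which counts are scaled to the library's total. Neuronal markers (6 genes) summed to 204 to 228 CPM at E9.5 and 4879 to 6240 CPM later, neural progenitor markers (6 genes) to 1293 to 2641 CPM before birth and 182 to 202 CPM at P60, and myelin genes (6 genes) to 59.5 to 94.0 CPM before birth and 13072 to 15219 CPM at P60. Markers of other tissues moved with stage too: surface ectoderm (6 genes) went from 194 to 294 CPM at E9.5 to 13.3 to 15.6 CPM at E14.5 and 6.65 to 13 CPM at P60, meninges (6 genes) from 1050 to 1194 CPM to 469 to 696 CPM and 47.4 to 68.6 CPM, and choroid plexus (6 genes) from 133 to 165 CPM to 537 to 785 CPM and 1915 to 4424 CPM. The last 2 lists went both ways in the first step, with 2 meninges genes called higher and 4 lower, and 5 choroid plexus genes higher and 1 lower. That 1 was Otx2, which held most of the E9.5 choroid plexus sum (131 CPM on average) and was called lower in both steps. Ttr went from 0.839 CPM on average to 517 and 3235 CPM. No gene of the 6 lists was at 0 at any stage, and the part of these tissues in the stage differences below was not tested. E9.5 library 1 held 345 CPM of 6 heart and muscle markers, against 11.3 and 13.4 CPM in the other E9.5 libraries. E14.5 library 1 and P60 library 3 were low for genes with long exon models (at least 6300 bases) relative to short ones (at most 2371 bases) by a median log2 of -0.49 and -0.39 against their stage, and P60 library 2 was high by 0.51.

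Of the 54 genes, 48 had enough reads to be tested. "Called" means an adjusted p below 0.05 in edgeR's quasi-likelihood test over all 17971 genes tested. Fold changes are fitted log2 values, with an approximate standard error (SE) after the ± sign. This SE was derived from the test, as the absolute log2 value divided by the square root of its F statistic. Between E9.5 and E14.5, 38 of the 48 were called, 18 higher and 20 lower, in a comparison where 64.6% of all genes were called (34% higher, 30.7% lower). Their median log2 fold change was -0.16, beside 0.03 for all genes. Between E14.5 and P60, 32 were called, 10 higher and 22 lower, where 76.1% of all genes were called (36.7% higher, 39.4% lower), and the median was -0.52, beside -0.06 for all genes. With upper quartile scaling, which raised the median of all genes in that step by 0.16, the split was 14 higher and 19 lower. Over the whole span from E9.5 to P60, 39 were called, 15 higher and 24 lower, where 82.6% of all genes were called (42% higher, 40.6% lower), with a median of -0.41 beside 0.05. The 3 comparisons share libraries, so their counts are not independent of each other.

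Without E14.5 library 1 the counts were 37, 34 and 39, without P60 library 3 they were 38, 29 and 38, without P60 library 2 they were 40, 35 and 37, and without E9.5 library 1 they were 33, 32 and 37. Changes of at least 2-fold were called for 27 genes in the first step, 13 higher and 14 lower, beside 43.5% of all genes (25.4% higher, 18.1% lower). In the second step they were called for 22, 5 higher and 17 lower, beside 56.8% of all genes (27.1% higher, 29.7% lower), and over the span for 31, 11 higher and 20 lower, beside 67.6% of all genes (35.1% higher, 32.5% lower).

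**Figure D1:**
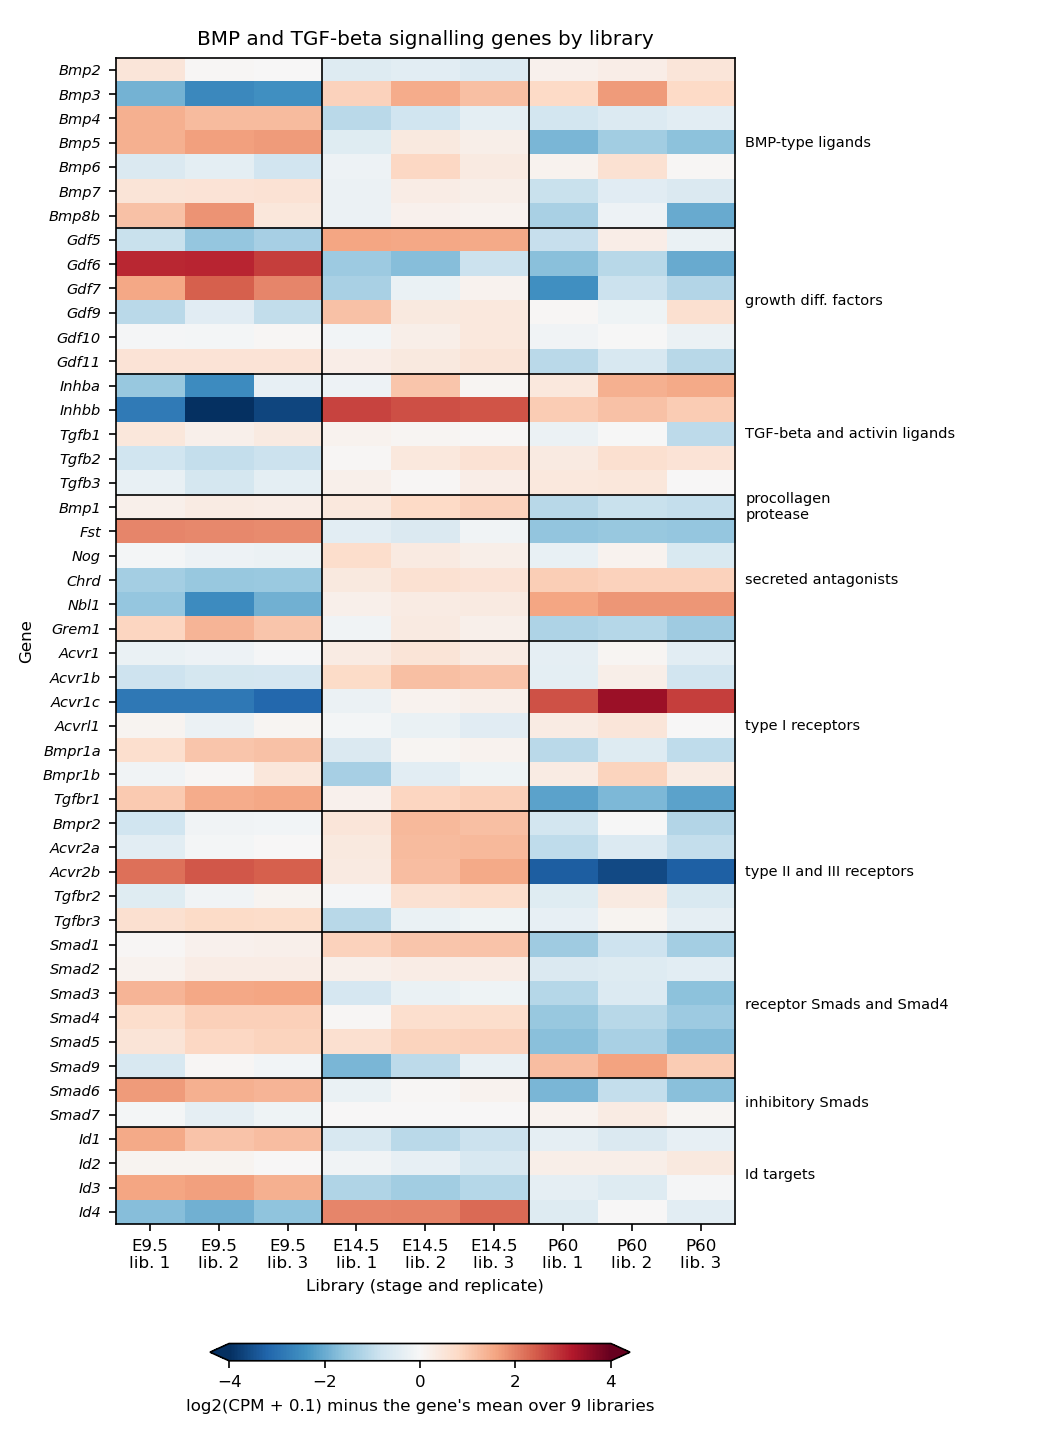
Heat map of the 48 tested genes (rows, by role) in the 9 libraries (columns); colour is log2(CPM + 0.1) minus the gene's mean over the 9 libraries, red above and blue below it. The 3 libraries of a stage share their colour in most rows, with Gdf6 red at E9.5, Id4 and Inhbb red at E14.5, and Acvr1c red at P60 where Acvr2b is darkest blue.

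Read over both steps, 9 of the 48 genes fell in both: Acvr2b, Bmp5, Bmp7, Bmpr1a, Fst, Grem1, Smad4, Smad6 and Tgfbr1. The rise-then-fall pattern also held 9: Acvr1, Acvr1b, Acvr2a, Bmp1, Bmpr2, Gdf5, Id4, Inhbb and Smad1. A fall followed by a rise was called for 5 genes, Bmp2, Bmpr1b, Id1, Id2 and Id3, and a rise in both steps for 3, Acvr1c, Chrd and Nbl1. Among all genes tested, falling in both steps took 14.6%, rising and then falling 11.5%, falling and then rising 8.59% and rising in both 14.8%. The other 22 genes were called in 1 step or in none; Gdf10, Smad7, Tgfb1 and Tgfbr2 were called in neither.

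**Figure D2:**
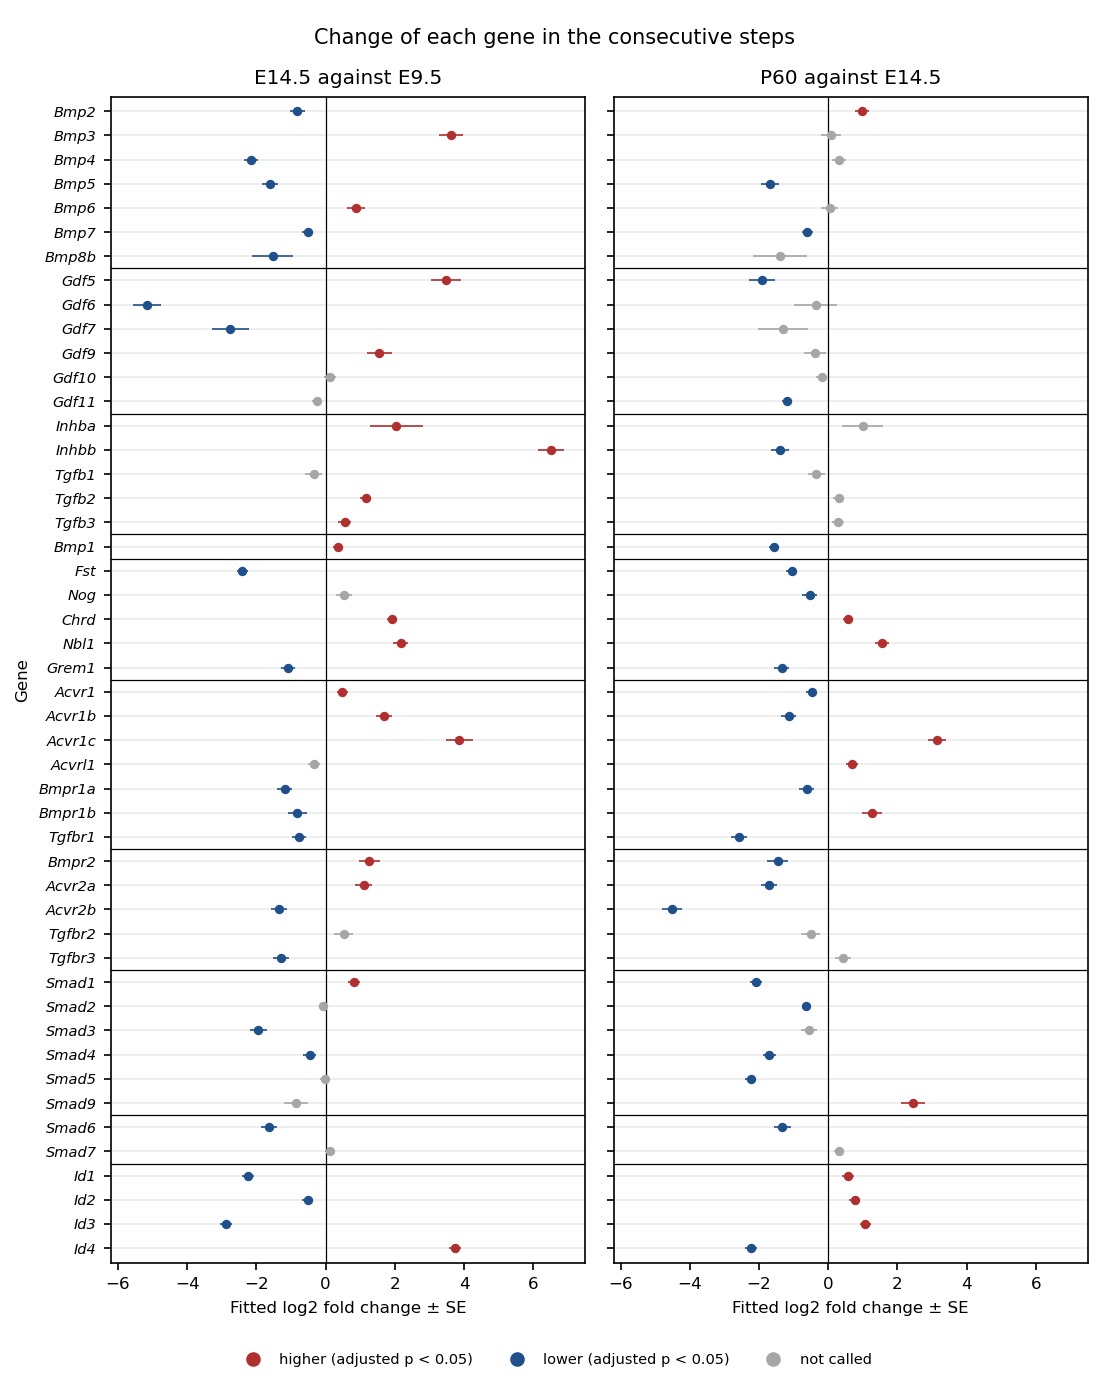
Fitted log2 fold change of each tested gene with a bar of 1 SE, E14.5 against E9.5 on the left and P60 against E14.5 on the right; red points were called higher, blue points called lower and grey points not called. On the right 22 of the 32 called points are blue, with Acvr2b farthest left at -4.51.

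Among BMP-type ligands, every one of the 7 tested genes was called in the first step, 5 lower and 2 higher, where 64.6% of all genes were called (34% higher, 30.7% lower). Bmp4, the ligand of dorsal ectoderm and roof plate, stood at 14.3, 12.9 and 12.9 CPM in the E9.5 libraries, 2.49, 3.06 and 4.07 CPM at E14.5 and 3.16, 3.65 and 3.99 CPM at P60. The E9.5 libraries lay far above all later ones, and the E14.5 and P60 ranges overlapped. Bmp4 fell from E9.5 to E14.5 (log2 fold change -2.16 ± 0.20, adjusted p = 3.7e-06), and the second step was not called (log2 fold change 0.31 ± 0.20, adjusted p = 0.17). Bmp7, a ligand that pairs with Bmp4 or Bmp2 in heterodimers, stood at 35.2, 35.7 and 36.7 CPM in the E9.5 libraries, 21.1, 30.3 and 28.9 CPM at E14.5 and 13.2, 18 and 16.6 CPM at P60. Its 3 stages did not overlap, and it was called lower in both steps (log2 fold changes -0.52 ± 0.16, adjusted p = 0.016 in the first step, and -0.61 ± 0.16, adjusted p = 0.006 in the second). The first of these calls was lost without E9.5 library 1 (log2 fold change -0.50, adjusted p = 0.05). Per exon length, in TPM (the same scaling after division by exon length), Bmp7 was the most abundant BMP-type ligand at each stage, at 32.1 ± 1.87 TPM (SD, n = 3), 25.4 ± 6.26 TPM and 11.0 ± 2.37 TPM, and made up 45.5%, 51.8% and 39.2% of the TPM of the 10 ligands. Bmp4 went from 30.3% of that sum at E9.5 to 11.1% at E14.5.

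Bmp5, a close relative of Bmp7, averaged 8.55 ± 0.902 CPM (SD, n = 3) at E9.5, 2.98 ± 0.898 at E14.5 and 0.836 ± 0.145 at P60, and fell in both steps (log2 fold changes -1.61 ± 0.24, adjusted p = 0.00013 in the first step, and -1.68 ± 0.26, adjusted p = 0.00014 in the second). Of its exon bases, 46.7% lie opposite an antisense gene, Gm26903, from which the counting could not separate it. Bmp2, the close relative of Bmp4, averaged 3.76 ± 0.736 CPM (SD, n = 3) at E9.5, 2.27 ± 0.118 at E14.5 and 4.07 ± 0.509 at P60, a fall (log2 fold change -0.82 ± 0.21, adjusted p = 0.0055) followed by a rise (log2 fold change 0.98 ± 0.21, adjusted p = 0.0014). P60 against E9.5 was not called (log2 fold change 0.16 ± 0.20, adjusted p = 0.48). Bmp8b averaged 0.859 ± 0.434 CPM (SD, n = 3) at E9.5, 0.315 ± 0.0599 at E14.5 and 0.106 ± 0.132 at P60. It held 11 reads in all at P60, and its call in the first step (log2 fold change -1.53 ± 0.60, adjusted p = 0.044) was lost, with adjusted p between 0.064 and 0.19, without any single library of E9.5 1, E9.5 2, E14.5 1, E14.5 2, E14.5 3 or P60 1. Over the whole span it fell (log2 fold change -2.91 ± 0.70, adjusted p = 0.0025), with -4.62 without P60 library 2 and -2.31 without P60 library 3. In the second step Bmp8b was not called (log2 fold change -1.39 ± 0.78, adjusted p = 0.13), but was without P60 library 2 (-3.10, adjusted p = 0.014). Bmp8a, a near-identical copy with which it may share reads, held 3 to 10 reads a stage and was not tested.

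2 BMP-type ligands were higher at E14.5. Bmp3, a ligand that opposes the others through activin type II receptors, averaged 0.553 ± 0.175 CPM (SD, n = 3) at E9.5, 7.28 ± 1.43 at E14.5 and 6.98 ± 2.82 at P60. That is a rise (log2 fold change 3.62 ± 0.35, adjusted p = 5.3e-06) with no overlap, and the second step was not called (log2 fold change 0.08 ± 0.29, adjusted p = 0.81). Bmp6, a ligand also known as the regulator of liver hepcidin, averaged 4.62 ± 0.629 CPM (SD, n = 3) at E9.5, 9.02 ± 3.15 at E14.5 and 8.38 ± 1.85 at P60, and rose (log2 fold change 0.87 ± 0.26, adjusted p = 0.013). This call was lost without E9.5 library 3 (0.77, adjusted p = 0.053) and without E14.5 library 2 (0.60, adjusted p = 0.067). The ratio of Bmp6 to Bmp4, from TPM + 0.1 in each library, went from a mean log2 of -2.31 ± 0.22 (SD, n = 3) at E9.5 to 0.66 ± 0.47 at E14.5 and 0.40 ± 0.35 at P60, so that Bmp4 was the higher of the pair in every E9.5 library and the lower in every later one.

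Bmp10 and Bmp15, ligands of heart and oocyte, were not tested. All 15 reads of Bmp10 came from E9.5 library 1 (0.49 CPM), the library with the raised heart and muscle markers; the other 8 libraries held none, which allows up to 0.0842 to 0.0984 CPM in each (3 counts of the total, counting error only). Bmp15 held 2, 15 and 16 reads at the 3 stages.

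**Figure D3:**
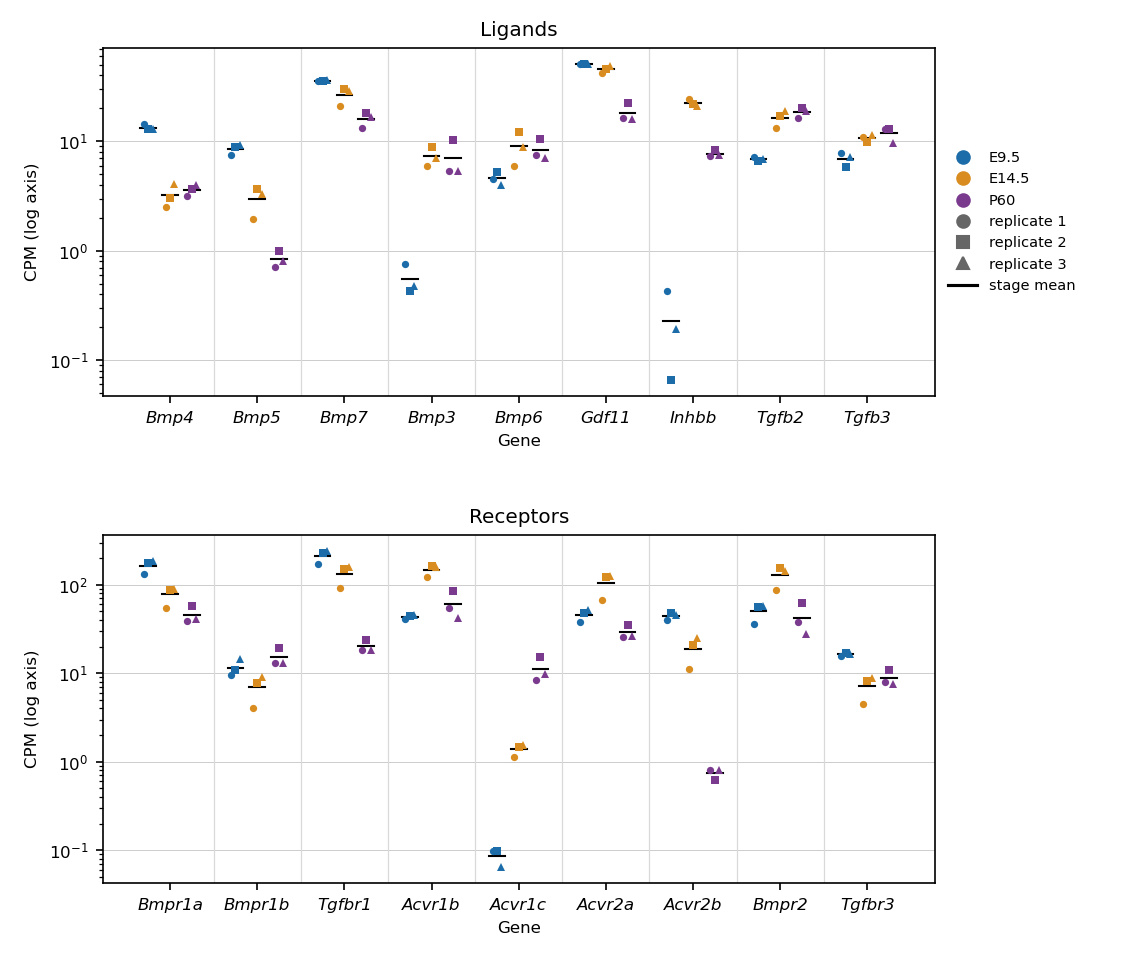
CPM of 9 ligands (top) and 9 receptors (bottom) on log axes; each marker is 1 library, coloured by stage and shaped by replicate number, and each bar is a stage mean. Inhbb and Acvr1c climb from below 1 CPM at E9.5, and Acvr2b drops below 1 CPM in all P60 libraries.

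Of the growth differentiation factors, Gdf11, a ligand that limits neuron number and sets spinal position through Smad2 and Smad3, was at 50.7, 50.8 and 51.1 CPM in the E9.5 libraries, 41.8, 45.8 and 49.1 CPM at E14.5 and 16.4, 22.2 and 16.1 CPM at P60. The E9.5 libraries lay just above the E14.5 libraries, and the P60 libraries far below both. The first step was not called (log2 fold change -0.25 ± 0.15, adjusted p = 0.16), although it was without P60 library 2 (-0.24, adjusted p = 0.043), and the second was a fall (log2 fold change -1.19 ± 0.15, adjusted p = 2.9e-05). Per length Gdf11 made up 73.5%, 74.0% and 62.6% of the TPM of the 9 factors at the 3 stages. Gdf6 and Gdf7, BMP-like ligands of the dorsal ectoderm and roof plate, were highest at E9.5 in every library. Gdf6 averaged 3.9 ± 0.417 CPM (SD, n = 3) at E9.5, 0.113 ± 0.0659 at E14.5 and 0.0778 ± 0.0579 at P60, with 360, 11 and 8 reads in all, and fell (log2 fold change -5.17 ± 0.41, adjusted p = 1.2e-06). Gdf7 averaged 2.07 ± 0.628 CPM (SD, n = 3) at E9.5, 0.325 ± 0.189 at E14.5 and 0.113 ± 0.102 at P60, with 191, 32 and 12 reads, and fell (log2 fold change -2.75 ± 0.54, adjusted p = 0.001). Over the whole span both fell (log2 fold changes -5.53 ± 0.43, adjusted p = 3.8e-07, and -4.06 ± 0.62, adjusted p = 9.1e-05), and without P60 library 2 they were -6.27 and -4.68. The second step was not called for either (log2 fold changes -0.37 ± 0.61, adjusted p = 0.61, and -1.31 ± 0.72, adjusted p = 0.12), although Gdf7 was called without E14.5 library 1 (-1.68, adjusted p = 0.046). Surface ectoderm markers fell over the same first step, as given above, and their part in these values was not tested.

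Gdf5, a joint and neuron survival ligand, peaked at E14.5, with 0.108 ± 0.0501 CPM (SD, n = 3) at E9.5, 1.33 ± 0.0245 at E14.5 and 0.316 ± 0.161 at P60. Gdf5 rose (log2 fold change 3.48 ± 0.44, adjusted p = 4.2e-05) and then fell (log2 fold change -1.91 ± 0.37, adjusted p = 0.00066). Its P60 level was above E9.5 (log2 fold change 1.57 ± 0.50, adjusted p = 0.013), a call lost without E9.5 library 2 (1.32, adjusted p = 0.053) and without P60 library 2 (1.16, adjusted p = 0.055). Gm15557, an opposite-strand gene over 40.3% of the exon bases of Gdf5, cannot be told apart from it without strand. Gdf9, an oocyte factor, averaged 0.846 ± 0.235 CPM (SD, n = 3) at E9.5, 2.64 ± 0.886 at E14.5 and 1.84 ± 0.585 at P60 and rose in the first step (log2 fold change 1.55 ± 0.35, adjusted p = 0.0025). Gdf10 averaged 7.53 ± 0.386 CPM (SD, n = 3) at E9.5, 8.8 ± 1.64 at E14.5 and 6.99 ± 0.524 at P60 and was called in no comparison. Gdf2, Gdf3 and Gdf15 were at 0.393 CPM or less in every library and were not tested.

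Of the 5 TGF-beta and activin ligands, 4 were called higher in the first step and none lower, beside 34% and 30.7% of all genes, and the calls of Tgfb3 and Inhba were lost when single libraries were left out. Inhbb, which encodes the activin B subunit (chromosome 1, 119415465 to 119422248), was at 0.425, 0.0656 and 0.192 CPM in the E9.5 libraries, 24.1, 22.1 and 21 CPM at E14.5 and 7.38, 8.34 and 7.44 CPM at P60. It was close to absent in every E9.5 library, with 21 reads in all, and highest in every E14.5 library. Inhbb rose (log2 fold change 6.51 ± 0.37, adjusted p = 1e-07), or 7.33 without E9.5 library 1, the highest of its stage. Inhbb then fell (log2 fold change -1.40 ± 0.26, adjusted p = 0.00051). P60 was above E9.5 (log2 fold change 5.11 ± 0.36, adjusted p = 1.8e-07), or 5.91 without E9.5 library 1. Inhbb thereby went from 1.09% to 42.1% and then 19.2% of the TPM of the 5 ligands. Tgfb2, a TGF-beta isoform of embryonic brain and glia, stood at 7.26, 6.59 and 6.91 CPM in the E9.5 libraries, 13.3, 17.2 and 18.9 CPM at E14.5 and 16.4, 20.1 and 18.8 CPM at P60. Its E9.5 libraries lay below all later ones, and the E14.5 and P60 ranges overlapped. Tgfb2 rose (log2 fold change 1.15 ± 0.16, adjusted p = 8.3e-05) and the second step was not called (log2 fold change 0.30 ± 0.15, adjusted p = 0.094), although it was with median-of-ratios scaling (0.40, adjusted p = 0.031), upper quartile scaling (0.47, adjusted p = 0.018) and DESeq2 (0.38, adjusted p = 0.034). In TPM the mean of Tgfb2 was lower at P60 (8.81) than at E14.5 (10.8), with overlapping libraries.

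Tgfb3 averaged 6.93 ± 1.04 CPM (SD, n = 3) at E9.5, 10.8 ± 0.796 at E14.5 and 11.9 ± 1.9 at P60, a rise (log2 fold change 0.55 ± 0.18, adjusted p = 0.019) that was lost without E9.5 library 2 (0.43, adjusted p = 0.087) or E14.5 library 3 (0.53, adjusted p = 0.056). Tgfb1, the isoform best known from immune cells and microglia, averaged 6.7 ± 0.575 CPM (SD, n = 3) at E9.5, 5.62 ± 0.219 at E14.5 and 4.05 ± 1.4 at P60. It was called only over the whole span, lower (log2 fold change -0.68 ± 0.24, adjusted p = 0.023), and not without E9.5 library 1 (-0.62, adjusted p = 0.06), E9.5 library 3 (-0.68, adjusted p = 0.05) or P60 library 3 (-0.42, adjusted p = 0.063). Microglial markers (6 genes, none at 0) summed to 25.5 to 28.2 CPM at E9.5, 62.4 to 71.9 CPM at E14.5 and 390 to 436 CPM at P60. Most of the E9.5 sum was Tmem119, at 18.8 CPM on average, which was called lower at E14.5 (3.88 CPM), whereas the other 5 were called higher. Relative to Tgfb1, Tgfb2 went from a mean log2 TPM ratio of -0.15 ± 0.06 (SD, n = 3) to 1.31 ± 0.32 and 1.99 ± 0.54, and Tgfb3 from 0.61 ± 0.10 to 1.49 ± 0.14 and 2.13 ± 0.29. Inhba, the activin A subunit, held 14, 67 and 127 reads at the 3 stages. Its rise (log2 fold change 2.04 ± 0.76, adjusted p = 0.036) was lost without E9.5 library 1 (1.85, adjusted p = 0.1), E9.5 library 2 (1.48, adjusted p = 0.088), E14.5 library 2 (1.47, adjusted p = 0.15) or P60 library 2 (2.05, adjusted p = 0.051). Without E9.5 library 3 the first step came to 3.58 (adjusted p = 0.0079). Over the whole span Inhba rose (log2 fold change 3.04 ± 0.73, adjusted p = 0.0025), or by 4.57 without E9.5 library 3.

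Bmp1, the protease that releases BMPs from chordin, was at 49.6, 54.3 and 53.5 CPM in the E9.5 libraries, 58.1, 75.6 and 82.3 CPM at E14.5 and 20.3, 23.4 and 22.2 CPM at P60. All P60 libraries lay below all embryonic ones. Bmp1 fell (log2 fold change -1.57 ± 0.14, adjusted p = 2.7e-06) after E14.5. The small rise before that (log2 fold change 0.36 ± 0.14, adjusted p = 0.042) was lost with adjusted p between 0.052 and 0.16 without any single library of E9.5 1, E9.5 2, E9.5 3, E14.5 2, E14.5 3 or P60 1.

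The secreted antagonists changed places. At E9.5 follistatin (Fst), which traps activins, was the most abundant per length at 26.0 ± 0.448 TPM (SD, n = 3), 46.7% of the 5 antagonists. At E14.5 and P60 it was Nbl1 (DAN), a BMP antagonist of the cysteine knot family, at 47.3 ± 5.58 TPM and 91.8 ± 11.7 TPM, or 56.6% and 82.3%. Fst (chromosome 13, 114452290 to 114458951) stood at 34.2, 33.2 and 32.2 CPM in the E9.5 libraries, 6.49, 5.76 and 7.8 CPM at E14.5 and 2.84, 3.0 and 2.89 CPM at P60. Its stages did not overlap, and it fell (log2 fold changes -2.40 ± 0.15, adjusted p = 2e-07 in the first step, and -1.06 ± 0.15, adjusted p = 7.6e-05 in the second). Nbl1 (chromosome 4, 139082284 to 139092993) stood at 6.96, 3.51 and 5.41 CPM in the E9.5 libraries, 23.9, 25.7 and 26.4 CPM at E14.5 and 62, 70.4 and 70.1 CPM at P60. The order was reversed and again free of overlap, with rises (log2 fold changes 2.17 ± 0.22, adjusted p = 7.1e-06 in the first step, and 1.55 ± 0.21, adjusted p = 4.5e-05 in the second).

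Chordin (Chrd), the organizer antagonist, was at 3.92, 3.51 and 3.61 CPM in the E9.5 libraries, 13.4, 15.9 and 15.1 CPM at E14.5 and 20.3, 19.7 and 19.8 CPM at P60. Chrd rose (log2 fold changes 1.91 ± 0.14, adjusted p = 6.2e-07 in the first step, and 0.57 ± 0.13, adjusted p = 0.0022 in the second), and in CPM each P60 library was above each E14.5 library. In TPM the second rise was not seen, with 7.45, 10.0 and 9.504 TPM at E14.5 and 8.73, 9.55 and 8.09 TPM at P60, which overlapped. Grem1, an antagonist of the cysteine knot family, moved in the opposite direction, with 8.23 ± 1.46 CPM (SD, n = 3) at E9.5, 4.15 ± 0.758 at E14.5 and 1.49 ± 0.161 at P60, and fell (log2 fold changes -1.08 ± 0.20, adjusted p = 0.00075 in the first step, and -1.34 ± 0.21, adjusted p = 0.00018 in the second). Noggin (Nog) averaged 5.25 ± 0.33 CPM (SD, n = 3) at E9.5, 8.04 ± 1.42 at E14.5 and 5.05 ± 1.37 at P60. It was called lower after E14.5 (log2 fold change -0.54 ± 0.23, adjusted p = 0.047), a call lost with adjusted p between 0.061 and 0.16 without any single library of E9.5 2, E9.5 3, E14.5 1, E14.5 2, P60 1 or P60 3. Its first step was not called (log2 fold change 0.53 ± 0.23, adjusted p = 0.061), but was without E14.5 library 3 (adjusted p = 0.048), P60 library 2 (adjusted p = 0.03) or P60 library 3 (adjusted p = 0.037), and with the replicate number as a block (0.51, adjusted p = 0.045). Summed over the role, antagonist TPM was 55.7 ± 1.05 (SD, n = 3) at E9.5, 83.4 ± 6.61 at E14.5 and 112 ± 15.3 at P60. Nbl1 alone held 9.31, 47.3 and 91.8 TPM of these sums. From E9.5 to P60 the mean TPM of Fst (26.0 to 1.75) and Grem1 (7.17 to 0.996) fell, and that of Chrd rose (2.11 to 8.79). For Nog the means were 11.1 and 8.35 TPM, with overlapping libraries. Nog was not called over this span (log2 fold change -0.01 ± 0.23, adjusted p = 0.96). The sum of BMP-type ligands was 70.6 ± 1.75, 49.3 ± 13.1 and 28.1 ± 6.39 TPM. Relative to E14.5, values at P60 came out lower in TPM than in CPM for the same gene. Bmp7, for example, went from 25.4 to 11.0 TPM but from 26.8 to 15.9 CPM. This limit applies to every TPM sum set across these 2 stages, also to those of the Smads and Id genes below.

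**Figure D4:**
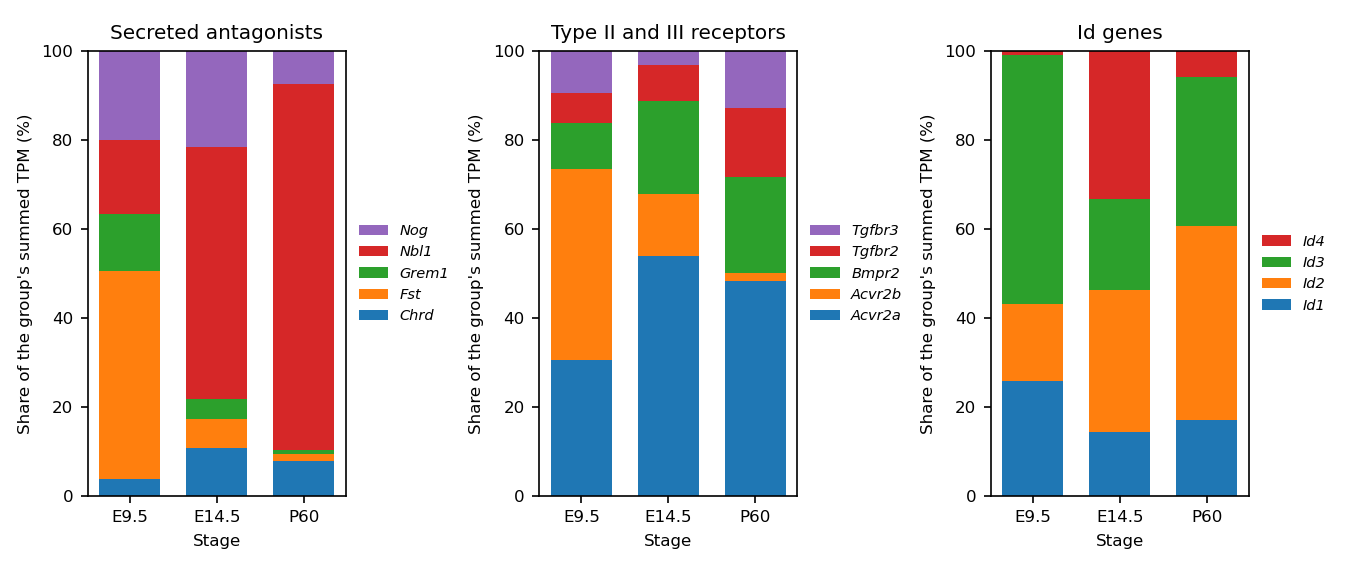
Stacked share of each gene in the summed TPM of its group at the 3 stages, as means of 3 libraries, for antagonists, type II and III receptors and Id genes. Fst shrinks from 46.7% to 1.57% of the antagonists while Nbl1 grows from 16.6% to 82.3%, and Acvr2b shrinks from 43.1% to 1.89% of the type II and III receptors.

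Of the 7 type I receptors, 6 were called in the first step (3 higher, 3 lower) and all 7 in the second (3 higher, 4 lower), beside 64.6% and 76.1% of all genes. Tgfbr1 (ALK5), the TGF-beta and Gdf11 receptor, was at 171, 229 and 241 CPM in the E9.5 libraries, 91.7, 149 and 159.6 CPM at E14.5 and 18.5, 23.6 and 18.5 CPM at P60. Each stage lay below the one before it, without overlap. Tgfbr1 fell (log2 fold changes -0.77 ± 0.21, adjusted p = 0.0073 in the first step, and -2.58 ± 0.22, adjusted p = 1.6e-06 in the second), and its share of type I receptor TPM went from 41.2% to 26.0% and 8.46%. Bmpr1a (ALK3), the main BMP receptor of neural progenitors, was at 132, 178 and 185 CPM in the E9.5 libraries, 55.1, 87.1 and 90.8 CPM at E14.5 and 38.9, 57.1 and 40.9 CPM at P60. Bmpr1a fell (log2 fold change -1.18 ± 0.22, adjusted p = 0.00068). The second fall (log2 fold change -0.62 ± 0.22, adjusted p = 0.022) had overlapping libraries and was lost without E14.5 library 2 (adjusted p = 0.072), E14.5 library 3 (adjusted p = 0.079), P60 library 1 (adjusted p = 0.089) or P60 library 3 (adjusted p = 0.07).

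Bmpr1b (ALK6), its relative, was at 9.48, 10.8 and 14.3 CPM in the E9.5 libraries, 4.06, 7.75 and 9.13 CPM at E14.5 and 13.1, 19.2 and 13.2 CPM at P60. It was lower at E14.5 (log2 fold change -0.82 ± 0.28, adjusted p = 0.023), not so without E9.5 library 3 (-0.65, adjusted p = 0.095) or E14.5 library 1 (-0.56, adjusted p = 0.057), and rose after that (log2 fold change 1.26 ± 0.28, adjusted p = 0.0017). The libraries of that rise overlapped in TPM, with 2.37, 5.11 and 6.03 TPM at E14.5 and 5.90, 9.75 and 5.66 TPM at P60. In TPM the log2 ratio of Bmpr1b to Bmpr1a was -3.73 ± 0.18 (SD, n = 3) at E9.5, -3.40 ± 0.21 at E14.5 and -1.49 ± 0.03 at P60, and Bmpr1a was the higher of the pair in all 9 libraries.

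Acvr1b (ALK4), the activin receptor, peaked at E14.5, with 40.8, 44 and 45.3 CPM in the E9.5 libraries, 122, 165 and 157 CPM at E14.5 and 55.1, 85.3 and 42.5 CPM at P60. The E14.5 libraries stood clear of both other stages. Acvr1b rose (log2 fold change 1.68 ± 0.23, adjusted p = 7.2e-05) and then fell (log2 fold change -1.14 ± 0.22, adjusted p = 0.00078). Its P60 level was called above E9.5 (log2 fold change 0.54 ± 0.22, adjusted p = 0.043), but the libraries overlapped. That call was lost, with adjusted p between 0.052 and 0.19, without any single library other than E14.5 1 or P60 3. Acvr1c (ALK7), the receptor for Nodal and activin B (chromosome 2, 58267453 to 58357895), stood at 0.0981, 0.0984 and 0.064 CPM in the E9.5 libraries, 1.14, 1.48 and 1.55 CPM at E14.5 and 8.37, 15.2 and 9.77 CPM at P60. With 8 reads in all at E9.5 it rose (log2 fold changes 3.85 ± 0.39, adjusted p = 7.8e-06 in the first step, and 3.13 ± 0.26, adjusted p = 1.3e-06 in the second), and all 3 stages were apart. Even at P60 it had 3.36 ± 1.38 TPM (SD, n = 3), with a mean ratio to Acvr1b of 0.0900.

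Acvr1 (ALK2), a BMP receptor, averaged 22 ± 1.59 CPM (SD, n = 3) at E9.5, 32.5 ± 2.24 at E14.5 and 21.2 ± 4.35 at P60. Its rise (log2 fold change 0.48 ± 0.16, adjusted p = 0.021) was lost without E9.5 library 1 (adjusted p = 0.061), E9.5 library 2 (adjusted p = 0.068) or E14.5 library 2 (adjusted p = 0.072), and its fall (log2 fold change -0.48 ± 0.16, adjusted p = 0.017) without E14.5 library 2 (adjusted p = 0.06), P60 library 1 (adjusted p = 0.066) or P60 library 3 (adjusted p = 0.059). Acvrl1 (ALK1), the endothelial receptor, averaged 17.2 ± 2.21 CPM (SD, n = 3) at E9.5, 14.48 ± 1.94 at E14.5 and 21.2 ± 3.43 at P60, and was called higher at P60 than at E14.5 (log2 fold change 0.68 ± 0.18, adjusted p = 0.0049). In TPM these 2 stages overlapped, with 13.4, 13.3 and 11.6 TPM at E14.5 and 13.6, 17.4 and 10.6 TPM at P60. Endothelial markers (6 genes, none at 0) summed to 256 to 289 CPM at E14.5 and 154 to 178 CPM at P60, but went both ways: 4 were called lower, with Kdr and Cdh5 falling from 68.4 and 47.6 CPM to 10.3 and 10.7 CPM on average, Flt1 was called higher (log2 fold change 0.65, adjusted p = 0.01) and Cldn5 was not called. Their part in the Acvrl1 values was not tested. Neither the first step nor the whole span was called for Acvrl1. The first step was called without E14.5 library 1 (-0.46, adjusted p = 0.048). The whole span was called without P60 library 3 (0.47, adjusted p = 0.034), with upper quartile scaling (0.49, adjusted p = 0.019), with no filter on low counts (0.45, adjusted p = 0.047) and with only the 2 stages compared (0.41, adjusted p = 0.039).

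Of the 5 type II and III receptors, 4 were called in the first step (2 higher, 2 lower) and 3 in the second, all lower, beside 64.6% and 76.1% of all genes. Acvr2b, an activin, Nodal and Gdf11 receptor (chromosome 9, 119402118 to 119434995), stood at 39.9, 48.5 and 45.9 CPM in the E9.5 libraries, 11.2, 20.7 and 24.8 CPM at E14.5 and 0.799, 0.622 and 0.814 CPM at P60. Its stages were far apart, and no P60 library reached 1 CPM. Acvr2b fell (log2 fold changes -1.34 ± 0.24, adjusted p = 0.00048 in the first step, and -4.51 ± 0.29, adjusted p = 2.2e-07 in the second). Over the whole span it fell (log2 fold change -5.86 ± 0.30, adjusted p = 1.6e-08). Acvr2a, its relative with overlapping ligands, stood at 38.1, 48.4 and 51.8 CPM in the E9.5 libraries, 66.8, 124 and 125 CPM at E14.5 and 25.4, 35.2 and 26.4 CPM at P60. Acvr2a rose (log2 fold change 1.09 ± 0.23, adjusted p = 0.0017) and fell (log2 fold change -1.72 ± 0.24, adjusted p = 5.9e-05), with E14.5 library 1 well below its partners. The P60 level was below E9.5 (log2 fold change -0.62 ± 0.23, adjusted p = 0.028), a call lost without E9.5 library 2 (adjusted p = 0.069), E9.5 library 3 (adjusted p = 0.085), P60 library 1 (adjusted p = 0.11) or P60 library 3 (adjusted p = 0.094).

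In TPM, the log2 ratio of Acvr2a to Acvr2b went from -0.50 ± 0.13 (SD, n = 3) at E9.5 to 1.96 ± 0.14 at E14.5 and 4.50 ± 0.45 at P60. As a mean ratio that is 0.709, 3.88 and 22.6. Acvr2b was the higher of the pair in all E9.5 libraries and Acvr2a in all others. The low value of E14.5 library 1 in both genes left this ratio within the spread of its stage, at 2.03 against 2.04 and 1.80.

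Bmpr2, the BMP type II receptor, was at 35.7, 56.2 and 58.3 CPM in the E9.5 libraries, 87.6, 153 and 144 CPM at E14.5 and 37.5, 61.9 and 27.5 CPM at P60. Every E14.5 library was above every library of the other stages, whose ranges overlapped. Bmpr2 rose (log2 fold change 1.26 ± 0.31, adjusted p = 0.004) and fell (log2 fold change -1.46 ± 0.31, adjusted p = 0.0013). Tgfbr2, which pairs with Tgfbr1, averaged 14.3 ± 2.8 CPM (SD, n = 3) at E9.5, 22 ± 5.67 at E14.5 and 14 ± 5.43 at P60 and was called in no comparison. It was called in the first step without E14.5 library 1 (0.71, adjusted p = 0.041) or P60 library 2 (0.53, adjusted p = 0.043), and in the second without the same libraries (-0.69, adjusted p = 0.039, and -0.86, adjusted p = 0.0078). Tgfbr3 (betaglycan), the coreceptor that presents TGF-beta2 and inhibin, was at 15.5, 17.1 and 16.4 CPM in the E9.5 libraries, 4.55, 8.22 and 8.76 CPM at E14.5 and 7.93, 10.7 and 7.64 CPM at P60. Tgfbr3 fell (log2 fold change -1.28 ± 0.23, adjusted p = 0.00055) and its second step was not called (log2 fold change 0.43 ± 0.23, adjusted p = 0.11).

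Receptor Smads and Smad4 summed to 356 ± 48.1 TPM (SD, n = 3) at E9.5, 293 ± 61.3 TPM at E14.5 and 69.8 ± 18.9 TPM at P60. In the BMP branch, Smad5 stood at 147, 183 and 188 CPM in the E9.5 libraries, 160.4, 192 and 193 CPM at E14.5 and 31.9, 41.7 and 30.9 CPM at P60. The embryonic stages overlapped and all P60 libraries lay far below. The first step was not called (log2 fold change -0.02 ± 0.16, adjusted p = 0.93), and it then fell (log2 fold change -2.24 ± 0.16, adjusted p = 5.1e-07). Smad1 stood at 34.8, 37.8 and 39.1 CPM in the E9.5 libraries, 64.4, 72.1 and 74.1 CPM at E14.5 and 12.6, 19 and 13.2 CPM at P60. Its E14.5 libraries were the highest and its P60 libraries the lowest, with no overlap. Smad1 rose (log2 fold change 0.82 ± 0.16, adjusted p = 0.0011) and fell (log2 fold change -2.09 ± 0.17, adjusted p = 1.1e-06).

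Smad9, the third BMP Smad, moved opposite to both at the end. It was at 2.22, 3.64 and 3.26 CPM in the E9.5 libraries, 0.922, 1.66 and 2.83 CPM at E14.5 and 8.47, 11.1 and 7.3 CPM at P60. All P60 libraries were above all embryonic ones. The first step was not called (log2 fold change -0.85 ± 0.35, adjusted p = 0.052), although it was without E9.5 library 1 (-1.01, adjusted p = 0.042) or E14.5 library 3 (-1.30, adjusted p = 0.0074) and with the replicate number as a block (-0.88, adjusted p = 0.025). The second step was a rise (log2 fold change 2.46 ± 0.35, adjusted p = 7.9e-05). In TPM the log2 ratio of Smad9 to Smad1 was -3.36 ± 0.28 (SD, n = 3) at E9.5, -5.07 ± 0.63 at E14.5 and -0.50 ± 0.15 at P60, so Smad1 remained the higher of the pair in each library.

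In the TGF-beta and activin branch, Smad3 stood at 144, 166 and 167 CPM in the E9.5 libraries, 35, 46.5 and 50.1 CPM at E14.5 and 25.3, 38.2 and 18 CPM at P60. The E9.5 libraries were all above the rest, and the later stages overlapped. Smad3 fell (log2 fold change -1.95 ± 0.24, adjusted p = 3.9e-05). The second step missed the threshold (log2 fold change -0.55 ± 0.24, adjusted p = 0.054), and was called without E14.5 library 1 (-0.68, adjusted p = 0.032) or P60 library 2 (-0.88, adjusted p = 0.0021). Smad2 averaged 63.4 ± 4.08 CPM (SD, n = 3) at E9.5, 64.2 ± 2.64 at E14.5 and 37.4 ± 2.02 at P60, was not called in the first step (log2 fold change -0.07 ± 0.12, adjusted p = 0.61) and fell in the second (log2 fold change -0.64 ± 0.12, adjusted p = 0.0005). The log2 TPM ratio of Smad3 to Smad2 was 1.98 ± 0.03 (SD, n = 3) at E9.5, 0.10 ± 0.21 at E14.5 and 0.13 ± 0.58 at P60. As a mean ratio that is 3.96 at E9.5, 1.07 at E14.5 and 1.10 at P60.

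Smad4, the partner of both branches, stood at 108, 129.9 and 129.8 CPM in the E9.5 libraries, 69.2, 107 and 109.8 CPM at E14.5 and 23.6, 31 and 24.6 CPM at P60. It was lowest in all P60 libraries. After E14.5 it fell (log2 fold change -1.71 ± 0.19, adjusted p = 1.1e-05). The earlier fall (log2 fold change -0.46 ± 0.18, adjusted p = 0.046) had overlapping libraries and was lost, with adjusted p between 0.052 and 0.13, without any single library other than E14.5 3 or P60 2.

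The inhibitory Smads parted. Smad6, a BMP-induced brake on the BMP branch, was at 15.3, 12.7 and 12 CPM in the E9.5 libraries, 3.87, 4.81 and 5.16 CPM at E14.5 and 1.25, 2.35 and 1.4 CPM at P60. Its stages did not overlap, and it fell (log2 fold changes -1.63 ± 0.24, adjusted p = 0.00012 in the first step, and -1.32 ± 0.25, adjusted p = 0.00055 in the second). Smad7, the brake on both branches, averaged 11.4 ± 1.19 CPM (SD, n = 3) at E9.5, 13.2 ± 0.0912 at E14.5 and 14.9 ± 1.41 at P60 and was called over the whole span (log2 fold change 0.44 ± 0.14, adjusted p = 0.014), a call lost without E9.5 library 2 (0.35, adjusted p = 0.077). In TPM its E9.5 and P60 libraries overlapped, with means of 9.03 and 9.16 TPM. Its second step was not called (log2 fold change 0.32, adjusted p = 0.061), but was with median-of-ratios scaling (0.42, adjusted p = 0.018), upper quartile scaling (0.48, adjusted p = 0.0085), DESeq2 (0.40, adjusted p = 0.012) and only the 2 stages compared (0.37, adjusted p = 0.045). No such rise was seen in TPM, where the mean of Smad7 was 11.0 TPM at E14.5 and 9.16 TPM at P60, with overlapping libraries. In TPM, Smad6 went from 62.3% to 33.0% and 13.4% of the sum of the pair.

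The Id genes, direct BMP targets that encode inhibitors of bHLH transcription factors, split in the first step. In CPM, Id1, Id2 and Id3 were lower at E14.5 and then higher at P60, and Id4 did the reverse. Id3 (chromosome 4, 136143497 to 136145755) was at 315, 326 and 279.5 CPM in the E9.5 libraries, 45.8, 40.3 and 47.8 CPM at E14.5 and 80.9, 73.1 and 101 CPM at P60. Its stages did not overlap. Id3 fell (log2 fold change -2.87 ± 0.17, adjusted p = 1.3e-07), rose (log2 fold change 1.07 ± 0.16, adjusted p = 0.00011) and remained below E9.5 (log2 fold change -1.81 ± 0.16, adjusted p = 1.2e-06). Id1 was at 106, 81.6 and 87.5 CPM in the E9.5 libraries, 23.6, 17.4 and 20.3 CPM at E14.5 and 28.8, 25 and 29.2 CPM at P60. It showed the same order of stages without overlap, with a fall (log2 fold change -2.25 ± 0.17, adjusted p = 1e-06) and a rise (log2 fold change 0.57 ± 0.17, adjusted p = 0.0095). That rise was not seen in TPM, where Id1 stood at 70.7, 59.0 and 69.0 TPM at E14.5 and 66.7, 65.2 and 64.5 TPM at P60, with overlapping libraries. Id2 averaged 129.8 ± 4.06 CPM (SD, n = 3) at E9.5, 96.2 ± 16.8 at E14.5 and 149.7 ± 10.8 at P60. Its fall (log2 fold change -0.52 ± 0.16, adjusted p = 0.015) was lost without E14.5 library 3 (-0.37, adjusted p = 0.07), and its rise was 0.77 ± 0.16, adjusted p = 0.0012. In TPM the Id2 libraries of that second step overlapped, at 159, 159 and 126 TPM at E14.5 and 158, 178 and 170 TPM at P60. The P60 mean of Id2 was above E9.5 in CPM but below it in TPM (169 ± 10.2 against 191 ± 6.46 TPM).

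Id4 (chromosome 13, 48261228 to 48266026), expressed by cortical progenitors and later by astrocyte lineage cells, was at 11.3, 9.74 and 12.1 CPM in the E9.5 libraries, 144, 149 and 178 CPM at E14.5 and 26, 37.4 and 28 CPM at P60. The E14.5 libraries stood far above all others, and the P60 libraries above the E9.5 libraries. Id4 rose (log2 fold change 3.74 ± 0.18, adjusted p = 4.4e-08) and fell (log2 fold change -2.23 ± 0.17, adjusted p = 6.7e-07). In TPM the log2 ratio of Id4 to Id1 went from -4.77 ± 0.18 (SD, n = 3) at E9.5 to 1.22 ± 0.29 at E14.5 and -1.60 ± 0.40 at P60. Neural progenitor markers (6 genes, none at 0) summed to 1293 to 1561 CPM, 1925 to 2641 CPM and 182 to 202 CPM at the 3 stages, and astrocyte markers (6 genes, none at 0) to 280 to 367 CPM, 205 to 343 CPM and 1625 to 2155 CPM. The E9.5 sum of the astrocyte list was mostly Gja1, at 318 CPM on average, which fell to 95.95 CPM at E14.5, whereas 4 of the 6 astrocyte markers were called higher in that step, among them Aldh1l1 (1.18 to 50.2 CPM) and Slc1a2 (11.8 to 141 CPM). All 6 were called higher after E14.5. Of the progenitor markers, 2 were called higher in the first step and all 6 lower in the second. Their part in the Id4 values was not tested.

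All 4 Id genes together held 1101 ± 37.5 TPM (SD, n = 3) at E9.5, 464 ± 17.4 TPM at E14.5 and 386 ± 18.9 TPM at P60. Id3 was 55.9% of the E9.5 sum; at E14.5 Id4 (33.3%) and Id2 (32.1%) were the largest parts, and at P60 it was Id2 (43.7%).

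**Figure D5:**
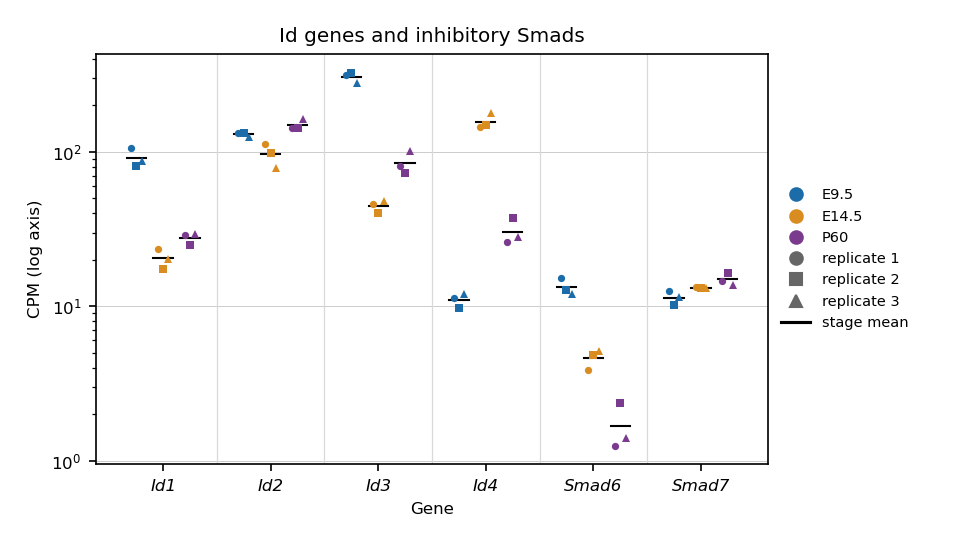
CPM of the Id genes and the inhibitory Smads on a log axis; each marker is 1 library, coloured by stage and shaped by replicate number, and each bar is a stage mean. Id1, Id2 and Id3 are lowest at E14.5, where Id4 is highest at 144 to 178 CPM, and Smad6 steps down from 13.3 to 4.61 and 1.67 CPM on average.

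To show the DNA around the RefSeq starts of genes with these opposing courses, the upstream windows of Id2, Id4 and Smad6 were read from RefSeq on GRCm38.p6, 5′ to 3′ on the strand of the gene. They were searched, with the windows of all genes (250 bases before to 50 bases after the start), for 2 letter strings that Smad complexes are known to bind: GTCTAGAC and the GC-rich GGCGCC. Each reads the same on both strands and neither contains the other, so 1 search covers both strands. RefSeq windows were at hand for 37 of the 54 genes, Id3 among them. Capitals mark the matches. The Id4 window covers chr13:48260866-48261119 on the plus strand, the Smad6 window chr9:64022056-64022309 on the minus strand (both end 4 bases inside the RefSeq gene), and the Id2 stretch is chr12:25096254-25096342 on the minus strand, cut where an exon of GENCODE begins. The Id2 stretch lies before the RefSeq start but inside the longer GENCODE gene, whose 5′ end is at 25097140.
Id2: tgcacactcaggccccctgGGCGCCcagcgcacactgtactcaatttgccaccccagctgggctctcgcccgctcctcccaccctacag
Id4: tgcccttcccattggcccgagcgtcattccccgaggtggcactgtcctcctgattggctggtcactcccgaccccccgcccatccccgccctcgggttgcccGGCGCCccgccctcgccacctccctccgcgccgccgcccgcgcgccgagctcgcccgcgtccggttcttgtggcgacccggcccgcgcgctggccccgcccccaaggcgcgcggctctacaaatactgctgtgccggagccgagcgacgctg
Smad6: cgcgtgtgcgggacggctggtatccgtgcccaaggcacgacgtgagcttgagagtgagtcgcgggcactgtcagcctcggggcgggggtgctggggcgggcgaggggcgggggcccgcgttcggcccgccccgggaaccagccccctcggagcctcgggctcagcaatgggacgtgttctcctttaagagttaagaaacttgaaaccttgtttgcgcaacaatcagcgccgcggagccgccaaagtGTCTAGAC

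GTCTAGAC stood once in the Smad6 window, beginning 4 bases before the start, and in none of the other 36 genes. It was present for 67 of 27025 genes with a window (0.248%). GGCGCC began 231 bases before the RefSeq start of Id2 and 148 bases before that of Id4. It was present for 12 of the 37 genes (32.4%) and for 13.4% of all genes with a window. Id3, whose values moved with Id1, held neither string in its 300 bases. A match is a description of these letters, and binding was not measured.

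Of 88 other genes of the pathway, listed by role, 82 were tested. In the first step 55 were called, 29 higher and 26 lower, and in the second 65, 22 higher and 43 lower, beside 64.6% and 76.1% of all genes. Median log2 fold changes were -0.12 and -0.68. Among 13 tested target genes reported for BMP or TGF-beta, 2 were higher and 7 lower at E14.5, beside 34% and 30.7% of all genes. Msx1, Msx2 and Msx3, homeobox targets of BMP signalling, led these falls. Msx1 averaged 67.4 ± 0.227 CPM (SD, n = 3) at E9.5, 10.8 ± 2.08 at E14.5 and 13.9 ± 2.34 at P60 and fell (log2 fold change -2.74 ± 0.18, adjusted p = 3.4e-07). Msx2 averaged 21.6 ± 2.52 CPM (SD, n = 3) at E9.5, 1.0 ± 0.425 at E14.5 and 0.662 ± 0.0952 at P60 and fell (log2 fold change -4.53 ± 0.27, adjusted p = 1.4e-07), and Msx3 averaged 25.6 ± 3.58 CPM (SD, n = 3) at E9.5, 1.69 ± 0.862 at E14.5 and 0.196 ± 0.184 at P60 and fell (log2 fold change -4.02 ± 0.48, adjusted p = 3e-05). Ccn2 (CTGF), a matrix protein induced by TGF-beta, fell (log2 fold change -2.66 ± 0.18, adjusted p = 3.8e-07) and came back (log2 fold change 2.71 ± 0.18, adjusted p = 2.5e-07), with 29.8 ± 0.806 CPM (SD, n = 3) at E9.5, 5.0 ± 0.933 at E14.5 and 29.9 ± 3.53 at P60. Dlx5, a forebrain interneuron homeobox gene of the same list, rose in the first step, from 10.3 ± 2.24 to 29.7 ± 5.47 CPM (log2 fold change 1.45 ± 0.22, adjusted p = 0.00016). After E14.5 Dlx5 fell (log2 fold change -3.23 ± 0.24, adjusted p = 5.1e-07). Lmx1a, another homeobox gene of the list, was not called in the first step (log2 fold change -0.13 ± 0.23, adjusted p = 0.64).

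Of 16 tested extracellular modulators outside the 54, 10 were higher and 3 lower at E14.5, beside 34% and 30.7% of all genes. Fstl5, a follistatin-like protein, averaged 0.326 ± 0.184 CPM (SD, n = 3) at E9.5, 49.6 ± 9.33 at E14.5 and 27.9 ± 3.68 at P60 and rose (log2 fold change 7.14 ± 0.33, adjusted p = 3.3e-08). After E14.5, 5 were higher and 7 lower, beside 36.7% and 39.4% of all genes. Vwc2 (brorin), a chordin-like antagonist of neural tissue, rose (log2 fold change 2.44 ± 0.21, adjusted p = 1.9e-06) and Dand5, a Nodal antagonist (log2 fold change 1.76 ± 0.19, adjusted p = 8.4e-06). Kcp, a chordin-like protein that enhances BMP signalling, fell (log2 fold change -3.94 ± 0.24, adjusted p = 1.6e-07), with 9.75 ± 1.57 CPM (SD, n = 3) at E9.5, 18.5 ± 3.53 at E14.5 and 1.1 ± 0.306 at P60. Lefty1, the Nodal antagonist among the other ligands, averaged 0.173 ± 0.047 CPM (SD, n = 3) at E9.5, 0.131 ± 0.0906 at E14.5 and 10.1 ± 2.56 at P60, a rise (log2 fold change 6.35 ± 0.42, adjusted p = 2.5e-07).

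Of the 25 intracellular regulators, 2 were higher and 19 lower after E14.5, beside 36.7% and 39.4% of all genes. Zfp423, a zinc finger partner of BMP Smads, averaged 109 ± 1.68 CPM (SD, n = 3) at E9.5, 96.3 ± 6.65 at E14.5 and 12.6 ± 3.49 at P60 and fell (log2 fold change -2.79 ± 0.19, adjusted p = 2.7e-07). In the first step 9 were higher and 8 lower, beside 34% and 30.7% of all genes. Pmepa1, a TGF-beta-induced inhibitor of Smad2 and Smad3, averaged 2.1 ± 0.591 CPM (SD, n = 3) at E9.5, 39.2 ± 1.44 at E14.5 and 22.5 ± 6.05 at P60 and rose (log2 fold change 4.13 ± 0.25, adjusted p = 1.5e-07). Nedd4l, a ubiquitin ligase of Smad2 and Smad3, averaged 20.3 ± 1.1 CPM (SD, n = 3) at E9.5, 222 ± 6.05 at E14.5 and 57.4 ± 19.3 at P60 and rose (log2 fold change 3.36 ± 0.22, adjusted p = 2.9e-07). Of 10 tested coreceptors and pseudoreceptors, 4 were higher and 2 lower in the first step, beside 34% and 30.7% of all genes. In the second step 5 were higher and 5 lower, beside 36.7% and 39.4% of all genes. Tmeff2, a transmembrane follistatin-domain protein, averaged 1.66 ± 0.27 CPM (SD, n = 3) at E9.5, 34.2 ± 5.91 at E14.5 and 96.9 ± 3.6 at P60, a rise (log2 fold change 4.27 ± 0.18, adjusted p = 2.2e-08). Of 9 genes of TGF-beta latency and activation, 2 were higher and 3 lower at E14.5, and 2 higher and 4 lower after it. The shares of all genes in each step were those just given. Thbs1, an activator of latent TGF-beta, averaged 83.8 ± 6.52 CPM (SD, n = 3) at E9.5, 26.1 ± 8.63 at E14.5 and 2.02 ± 0.445 at P60 and fell after E14.5 (log2 fold change -3.54 ± 0.26, adjusted p = 4.9e-07).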

How the data were processed

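RNA-seq of 9 mouse CNS libraries, 3 at each of E9.5, E14.5 and P60, was analysed. The submitters' processing notes name Trimmomatic 0.36, STAR 2.5.2b and the mm10 genome; the counting program, its annotation and its strand setting are not given in the sources used here. The authors deposited raw counts per Ensembl gene, and these whole-number counts were used as deposited. Symbols, coordinates and exon lengths came from GENCODE M21 (45143 of 45706 identifiers matched; the other 563 held 0.0956% of counts). Of 55 genes that matched by symbol, 1 is not reported here. The members and lists were chosen with earlier results of these data known.

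All 9 libraries were fitted with stage as factor in edgeR 4.0.16 under R 4.3.3 (TMM scaling, filterByExpr, robust quasi-likelihood test, two-sided, Benjamini-Hochberg over 17971 genes). On simulated counts, with the same spread for every gene and few genes changed, the test recovered 63.2% to 64.3% of genes changed 2-fold. Of those changed 4-fold it recovered 98.0% to 100%. The real libraries differ in both settings, so these rates are not the power reached here. CPM scale counts to the library total, and TPM also divide by exon length. Ratios of gene pairs used TPM + 0.1. Genes reaching a mean of 10 CPM in 1 stage and called at least 2-fold in a consecutive step are given in all 9 libraries, as are Bmp7 and Smad9, chosen after their values were seen; the others are given by stage means, ranges or counts. Of the other pathway genes, up to 4 called genes per step and direction are named, those with the largest change whose higher stage averaged at least 10 CPM and whose stages did not overlap. Other scalings, DESeq2 1.42.0, no low-count filter, fits of 2 stages, a replicate block and leaving out each library were tried. Deviations from the stage means of same-numbered libraries correlated at 0.37, 0.141 and 0.209 between E9.5 and E14.5. Differently numbered libraries of these stages reached 0.185 (E9.5 library 2 with E14.5 library 3) and 0.202 (E9.5 library 3 with E14.5 library 2). The labels give no pairing and these values cannot establish one, so the replicate block was used only as an alternative. Between these stages and P60 not every same-numbered pair correlated above 0.1.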

Additional observations from a re-analysis of the deposited data

How the results depend on the processing

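Every count of calls stayed within 1.5 times its reported value under all alternatives, and no called gene of the 54 changed direction. Over the scalings, tools, filters and 2-stage fits, 31 to 41 of the 54 genes were called in any comparison. Leaving out each library in turn gave 32 to 40 (E14.5 against E9.5), 29 to 35 (P60 against E14.5) and 35 to 39 (P60 against E9.5) called genes of the 54; 24 to 27, 20 to 24 and 30 to 31 called at least 2-fold; 51 to 59, 59 to 70 and 63 to 70 called pathway genes; and 10516 to 12360, 12923 to 14139 and 14400 to 15549 called genes in all. At least 1 alternative ended the call for 10 of 38, 3 of 32 and 5 of 39 genes; those ended by a library are named with their values above, and Bmp1, Bmp8b, Bmpr1b, Smad4, Inhba, Nog, Acvr1, Bmpr1a, Acvr1b and Acvr2a also lost a call under another scaling, tool, filter or fit. Upper quartile scaling shifted the median log2 fold change of all genes by 0.16 in P60 against E14.5 and by 0.15 in P60 against E9.5, and library totals alone by -0.14 in P60 against E14.5. Calls were gained, in the direction of the reported value, for Gdf11 (2-stage fit, adjusted p = 0.039), Nog (library totals 0.031, no filter 0.048, 2-stage fit 0.038) and Smad9 (median-of-ratios scaling 0.035, upper quartile scaling 0.048, DESeq2 0.022) in E14.5 against E9.5, for Tgfb3 (upper quartile scaling, 0.039), Tgfbr3 (upper quartile scaling, 0.032) and Smad3 (library totals, 0.025) in P60 against E14.5, and for Id2 (upper quartile scaling 0.034, 2-stage fit 0.039) and Bmpr1b (2-stage fit, 0.041) in P60 against E9.5, all as adjusted p; those of Tgfb2, Smad7 and Acvrl1 are given above. In TPM the means of Tgfb3 and Tgfbr3 were lower at P60 (9.76 and 3.74) than at E14.5 (12.1 and 4.21), with overlapping libraries. Same-numbered libraries of P60 and either embryonic stage correlated between -0.224 and 0.337 in their deviations, which establishes no pairing. With the replicate block over all 9 libraries, 40, 34 and 39 of the genes were called, 27, 22 and 31 at least 2-fold, with 58, 66 and 71 pathway genes and 12121, 14015 and 15081 genes in all; it added a call for Nog and Smad9 (E14.5 against E9.5) and for Smad3 and Tgfbr2 (P60 against E14.5) and ended none of the calls of the 54. The sign changed only for values that were not called. For E14.5 against E9.5, Smad5 came to 0.073 with library totals, 0.041 with no filter and -0.097 to 0.050 with a library left out, and Smad2 to 0.019 with library totals. For P60 against E14.5, library totals gave -0.11 for Bmp6 and -0.060 for Bmp3, and leaving out a library gave -0.18 to 0.31 for Bmp6, -1.11 to 0.15 for Gdf6 and -0.30 to 0.23 for Bmp3. For P60 against E9.5, median-of-ratios scaling gave 0.00056 for Nog and 0.010 for Acvr1, upper quartile scaling 0.13 for Nog, 0.090 for Gdf10 and 0.14 for Acvr1, DESeq2 0.0087 for Acvr1, no filter 0.084 for Nog, 0.040 for Gdf10 and 0.095 for Acvr1, and the 2-stage fit 0.048 for Nog, 0.0061 for Gdf10 and 0.059 for Acvr1. Tgfbr2 came to -0.027 with library totals and -0.0059 with the replicate block. With a library left out the ranges were -0.57 to 0.049 for Bmpr2, -0.23 to 0.16 for Nog, -0.17 to 0.11 for Acvr1 and -0.33 to 0.21 for Tgfbr2. Where a call was lost or a sign changed, the cause was not tested. Depth limits the genes with few reads: Gdf6, Gdf7, Bmp8b, Inhba, Gdf5 and Acvr1c rest on 8 to 14 reads in their lowest stage, and 6 ligands had too few reads to test.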
